A study of Rattus norvegicus with 14 samples.

Results

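The integrated stress response and the unfolded protein response were followed here through 36 listed genes: 7 transcription factors and sensors, 19 targets of the transcription factor ATF4, and 10 genes of folding and quality control in the endoplasmic reticulum (ER), here called ER chaperones. A gene was kept where its mean normalized count over the libraries of a culture was at least 10, and all 36 passed in both cultures, out of 15314 genes in neurons and 15380 in astrocytes. The lowest of them was Trib3 in astrocytes, at 15.9 to 24.7 in vehicle libraries and 13.9 to 37.7 in treated ones, so the minimum left no listed gene out. A normalized count is a gene's estimated read count after division by the authors' normalization factors, which puts the libraries of one culture on a common scale but does not correct for gene length. Levels of different genes are therefore not compared.

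RNA was sequenced from hippocampal neurons and from hippocampal astrocytes of embryonic day 18 Sprague Dawley rats. Every culture was kept in AM medium, in which supplements are reduced to model aging, so the controls carried that treatment too. Neurons on day 10 in culture had 4 h of AM medium and then 16 h with vehicle (AM-Veh, ethanol, 4 libraries) or with 100 nM allopregnanolone, a neurosteroid that acts on GABA-A receptors (AM-Allo, 4 libraries). Astrocytes had 24 h of AM medium with charcoal-stripped serum and then 24 h with vehicle (3 libraries) or 100 nM Allo (3 libraries). Neuron libraries are numbered 1-1, 1-2, 2-1 and 2-2 in each group, and astrocyte libraries 1 to 3. What the first part of the neuron number stands for is not given in the labels, and nothing in them says whether the libraries came from separate cultures, so p-values measure the spread between these libraries.

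The neuron cultures also held glial RNA. The 9 astrocyte markers summed to 9024 to 11599 ppm there (ppm, counts per 1000000 of all counts in a library's column) and to 10035 to 10669 in astrocyte cultures, while the 10 neuron markers listed summed to 2302 to 2769.5 and 1121 to 1188 ppm. Of those 10, 5 reached a mean normalized count of 10 in astrocyte cultures, so the sum there rests on these 5. Microglia markers summed to at most 2.59 ppm in neuron cultures and 67.4 in astrocyte cultures. In such bulk samples, fewer cells of a type and less RNA per cell cannot be told apart. From the spacing of the low values, libraries were estimated to hold about 19700000 to 25100000 reads on genes in neurons and 22200000 to 28400000 in astrocytes. These estimates are rough, since whole reads could not be recovered from the normalized values.

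As background, kinases that sense amino acid shortage, ER stress, heme shortage or double-stranded RNA phosphorylate the initiation factor eIF2alpha. General translation then falls while the ATF4 mRNA is translated better, and ATF4 switches on genes for amino acid synthesis, amino acid uptake, tRNA charging and, with its partner CHOP (Ddit3), for stress effectors such as Trib3. Unfolded proteins in the ER also act through ATF6 and through IRE1 (Ern1), which splices the Xbp1 mRNA, and both raise ER chaperones. Counts of poly(A) RNA per gene record mRNA levels, not ATF4 translation, eIF2alpha phosphorylation or Xbp1 splicing.

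Binding elements of these factors stand before the start of several of the genes, and they are shown because the 2 kinds are those of the ATF4 arm and of the ER chaperone arm of the list. RefSeq windows of 250 bases before to 50 after the gene start (build GRCr8) matched 30 of the 36 genes, and none matched for Atf3, Atf6, Ern1, Gars, Pdia6 and Manf. Searched on both strands were the C/EBP-ATF response element, TGATGNAA, the ER stress element, CCAAT and CCACG with any 9 bases between them, and the ER stress element II, ATTGG and CCACG with any 1 base between them. A gene counted once, although Slc3a2 had 2 windows. The first element stood before 5 of 18 ATF4 targets (27.8%) and 1 of 8 ER chaperones (12.5%), and in 3.98% of all 33469 windows. Either of the others stood before 5 of 8 ER chaperones (62.5%) and 0 of 18 ATF4 targets, and in 0.117% of all windows. These are letter matches with no test, and no match says only that these letters are not in the window. In the stretches below, some of those found, written 5′ to 3′ along the gene, capitals mark the element, on either strand.
Trib3, C/EBP-ATF response element (chr3:161275534-161275569, minus strand): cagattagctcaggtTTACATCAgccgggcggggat
Chac1, C/EBP-ATF response element (chr3:126795949-126795986, plus strand): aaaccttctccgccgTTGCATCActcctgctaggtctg
Slc7a1, C/EBP-ATF response element (chr12:11664443-11664480, plus strand): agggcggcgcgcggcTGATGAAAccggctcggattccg
Herpud1, C/EBP-ATF response element (chr19:10614869-10614906, minus strand): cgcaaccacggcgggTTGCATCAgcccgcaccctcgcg
Herpud1, ER stress element II (chr19:10614806-10614846, minus strand): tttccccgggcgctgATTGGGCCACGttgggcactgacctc
Hspa5, ER stress element (chr3:38452958-38453006, plus strand): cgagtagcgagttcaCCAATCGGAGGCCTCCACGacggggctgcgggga
Hsp90b1, ER stress element (chr7:23012436-23012484, minus strand): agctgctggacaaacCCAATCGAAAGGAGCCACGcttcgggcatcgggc
Calr, ER stress element (chr19:40213120-40213168, plus strand): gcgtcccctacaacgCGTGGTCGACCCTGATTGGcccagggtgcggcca
Xbp1, ER stress element (chr14:84604543-84604591, plus strand): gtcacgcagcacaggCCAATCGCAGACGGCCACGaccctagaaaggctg

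Among the 30 genes, Herpud1, an ER membrane protein of the degradation pathway, was the one whose window held both kinds of element. The windows of Nars and Aars also held C/EBP-ATF response elements, that of Creld2 an ER stress element, and that of Hsp90b1 a further ER stress element nearer the start.

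The first comparison asked whether Allo moved these genes in neurons. It moved none of them past the test: 0 of 36 had an unadjusted p under 0.05 in limma, against 5.69% of all genes tested, and 0 had an adjusted p under 0.05, against 0.0261% of all genes. Log2 differences ran from −0.11 for Chac1 to 0.10 for Ern1, and their median was −0.016 for ATF4 targets and 0.0022 for ER chaperones beside −0.0015 over all genes. No gene of the list had AM-Allo and AM-Veh libraries that did not overlap, against 3.95% of all genes. Adjusted p-values ran from 0.941 to 0.99976 over the list. This fit had no term for the first part of the library number. That part went with a median of 93.2% of the variance of ATF4 targets, beside 21.8% over all genes. Spread by number thus stayed in the error of the test. A low share of calls, or of groups without overlap, therefore cannot show that these genes responded less than other genes.

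Among the regulators, Atf4 had normalized counts of 3431, 3259.8, 3893 and 4430.0 in AM-Veh libraries 1-1, 1-2, 2-1 and 2-2, and 3022, 2985, 4122 and 4198 in the AM-Allo libraries in the same order. The groups overlapped, and in both of them the libraries numbered 2 lay above those numbered 1. The log2 difference between treatments was −0.08 (95% interval −0.36 to 0.21). Atf3, an early stress-induced repressor, had 146, 133, 219.9 and 232 in AM-Veh and 137, 136, 213 and 214 in AM-Allo, a difference of −0.05 (−0.54 to 0.43). Here too the libraries fell in pairs by number and not by treatment.

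Ddit3, which encodes CHOP, had 462, 433, 499.5 and 561 in AM-Veh and 468, 430.1, 483 and 551 in AM-Allo, with a log2 difference of −0.02 (−0.22 to 0.19). Counts of Xbp1 were 1230.2, 1076, 1154 and 1173 in AM-Veh and 1094, 1126, 1225 and 1132 in AM-Allo. They overlapped across treatments and across numbers, with an Allo difference of −0.02 (−0.13 to 0.10). The other regulators, Atf5, Atf6 and Ern1, differed by 0.02, −0.003 and 0.10 on the log2 scale.

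Of the ATF4 targets, Trib3, a pseudokinase induced with CHOP, had 125, 101, 295 and 364 in AM-Veh and 119, 107, 340.3 and 339 in AM-Allo, and its difference of 0.03 had an interval of −1.06 to 1.12, since the libraries within each group spread nearly as far as the whole set. Asns, asparagine synthetase, had 1525, 1551, 2124 and 2258 against 1441, 1453, 2273 and 2257, a difference of −0.02 (−0.42 to 0.39). Phgdh, the first enzyme of serine synthesis, had 8859, 9080.2, 9494 and 9752 against 9148, 9194, 9679.6 and 10009, a difference of 0.03 (−0.06 to 0.12). In each of these genes the lowest pair of libraries was numbered 1 in both treatments and the groups overlapped.

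Among the ER chaperones, Hspa5 (BiP), the main ER chaperone, had 10067, 9413, 10746 and 10985 in AM-Veh and 9894, 9641, 10860.3 and 10617 in AM-Allo, which bounded its Allo difference of −0.01 to −0.13 to 0.12. Herpud1 had 607, 565, 763 and 777 against 589, 582, 780.4 and 764, a difference of 0.0016 (−0.29 to 0.29). For Calr, the calcium-binding lectin chaperone, the interval was −0.07 to 0.07, and for Hsp90b1 (GRP94) it was −0.12 to 0.04.

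Because neuron libraries of the same number deviated together over all genes, the first part of the number was also fitted as a block. With that block, 2 of the 36 genes had an unadjusted p under 0.05, against 11.0% of all genes, and 0 an adjusted one, against 0.679%. They were Slc7a5, the large neutral amino acid transporter, and Shmt2, the mitochondrial serine hydroxymethyltransferase, with log2 differences of 0.07 and 0.07. Their unadjusted limma p-values were 0.0294 and 0.0355, and their adjusted ones 0.387 and 0.414. Slc7a5 had 8876, 8991, 9985 and 10726 in AM-Veh and 9008, 9393, 10765 and 11358 in AM-Allo, and Shmt2 had 1983, 1957, 2437 and 2529 and 2029.9, 2126, 2541 and 2649. Each AM-Allo library of both genes lay above the AM-Veh library of the same number, while the groups as a whole overlapped. The block also narrowed the intervals of the genes that spread most: the Allo difference of Trib3 then had an interval of −0.18 to 0.23, and that of Slc7a11 one of −0.08 to 0.20 in place of −1.49 to 1.61.

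Fits within the numbers taken alone, a choice made after the data were seen, had 2 libraries against 2. In libraries numbered 1, 3 of 36 genes had an unadjusted p under 0.05, against 1216 of all 15297 genes. In those numbered 2 it was 5 of 36, against 1923 of 15305. Atf4, 1 of the 3, differed by −0.16 in libraries numbered 1 (unadjusted p = 0.00153 and adjusted p = 0.207 by limma) and by 0.0025 in those numbered 2. The test of that difference between numbers gave an unadjusted p of 0.0424 for Atf4 and 0.0439 for Asns, the 2 of 36 genes under 0.05, against 9.53% of all genes, and adjusted p-values of 0.502 and 0.506, and 0 of 36 genes passed after adjustment, against 0.0784%.

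In astrocytes too, 0 of 36 genes had an unadjusted p under 0.05, against 7.01% of all genes tested, and 0 an adjusted one, against 0.00650%. Log2 differences ran from −0.11 for Ddit3 to 0.23 for Sdf2l1, an ER protein of the chaperone cycle. The median was 0.027 for ATF4 targets and 0.027 for ER chaperones beside 0.0014 over all genes. The AM-Allo and AM-Veh libraries did not overlap for 4 of 36 genes (11.1%), against 12.5% of all genes: Sesn2, Slc7a11 and Manf were higher in AM-Allo and Psat1 lower, with adjusted p-values of 0.757, 0.871, 0.779 and 0.823. With 3 libraries against 3, an exact permutation test cannot go below 0.1.

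Astrocyte counts of Atf4 were 2405, 2434 and 2510.1 in AM-Veh libraries 1 to 3 and 2530.5, 2367 and 2610.3 in AM-Allo libraries 1 to 3, a log2 difference of 0.03 (−0.06 to 0.12). Those of Atf3 were 423, 494 and 413 and 407, 474 and 411, with a difference of −0.04 (−0.23 to 0.15). For Ddit3 they were 515, 554 and 549 and 434, 564 and 505, and the AM-Allo libraries spanned all 3 vehicle libraries. Xbp1 gave 1439, 1528 and 1523 in AM-Veh and 1445, 1403 and 1435 in AM-Allo, overlapping, with a difference of −0.07 (−0.16 to 0.03).

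Trib3 was close to the minimum in astrocytes, at 15.9, 24.3 and 24.7 and 37.7, 28.1 and 13.9, and its difference of 0.20 had an interval of −0.58 to 0.98. Asns had 951, 972 and 882 in AM-Veh and 912, 887 and 884 in AM-Allo, a difference of −0.06 (−0.18 to 0.05). The counts of Phgdh, 2817, 2691 and 2851 against 2614, 2717 and 2625, overlapped in 1 library of each group. The chaperone Hspa5 had 12922, 13743 and 13655 and 13908, 13509 and 13773, and Herpud1 1949.5, 1894 and 2003 and 1929, 2057 and 1951, with intervals of −0.04 to 0.11 and −0.07 to 0.11 for their differences. Both sets of libraries overlapped.

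**Figure D1:**
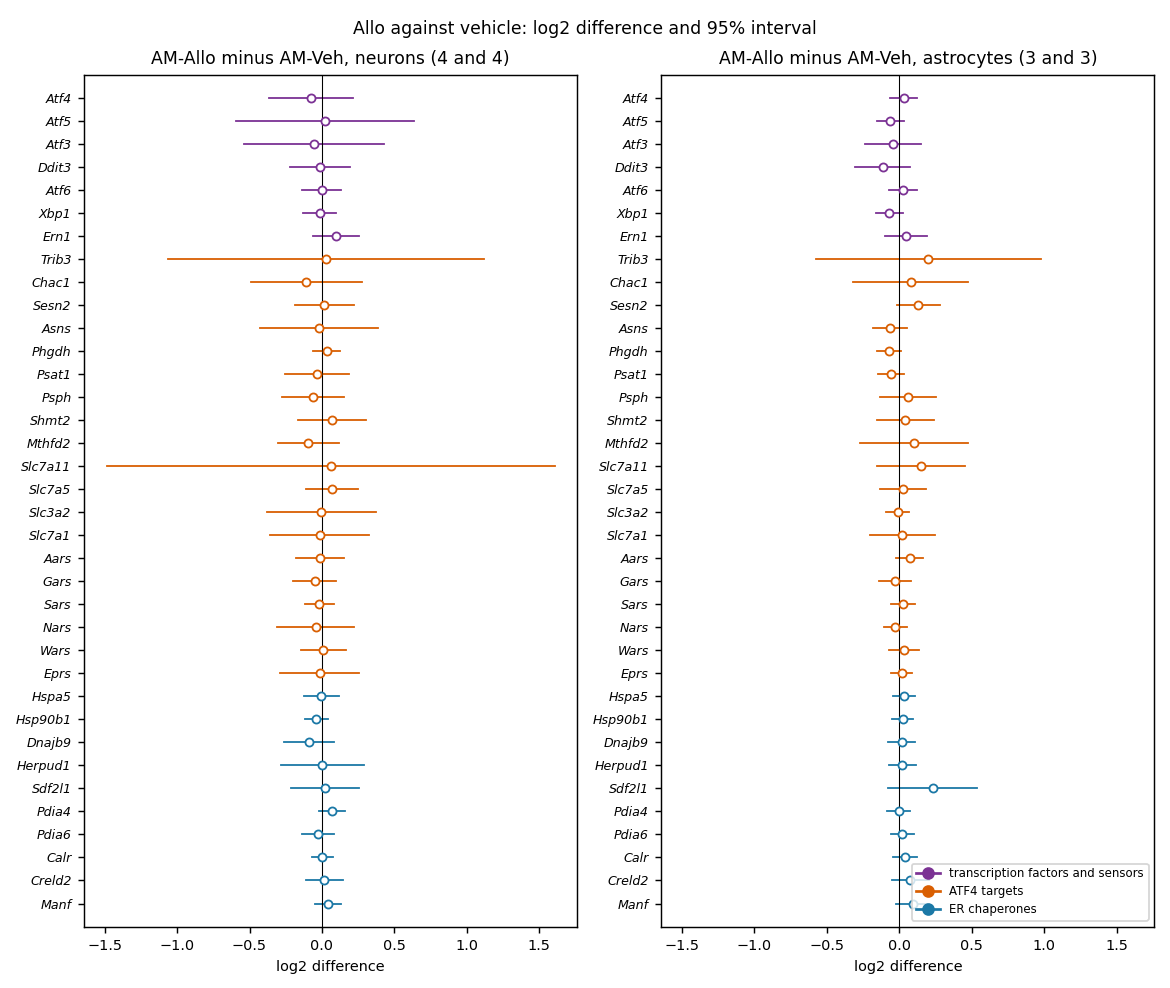
Log2 difference of AM-Allo minus AM-Veh with its 95% interval (horizontal axis) for each of the 36 genes (vertical axis), in neurons on the left (4 libraries against 4) and astrocytes on the right (3 against 3), coloured by class; open points have an adjusted p of at least 0.05. Every point is open, differences lie between −0.11 and 0.23, and the widest neuron intervals are those of Slc7a11 and Trib3.

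Further lists of the pathway were tested in the same fits. The neuron fit had no term for the number, so the limit given above for a low share of calls holds here too. In neurons, 0 of 17 genes of eIF2alpha control (kinases, phosphatase subunits, eIF2 and eIF2B), 0 of 30 further ATF4 and CHOP targets and 1 of 36 further ER folding and degradation genes had an unadjusted p under 0.05, against 5.69% of all genes. The last was Wfs1, which encodes an ER membrane protein, with 830.3, 862, 876 and 842 in AM-Veh and 935, 960.5, 1096 and 1152 in AM-Allo. Its groups did not overlap, the log2 difference was 0.28 (SE 0.066), and its adjusted p was 0.450 by limma and 0.0194 with the block by the first part of the number. With that block, 4 of 17 genes of eIF2alpha control (Eif2ak2, Eif2s1, Eif2s2 and Eif2s3, all with lower values in AM-Allo, by differences of −0.08 to −0.07), 8 of 30 further ATF4 and CHOP targets (4 with higher and 4 with lower values) and Wfs1 alone of the 36 further ER genes had an unadjusted p under 0.05, against 11.0% of all genes, and of these Wfs1 alone passed after adjustment. Of 10 neuron markers, 5 had an unadjusted p under 0.05 in the same libraries and 0 an adjusted one: Map2, Tubb3 and Slc17a7 had differences of 0.10, 0.21 and 0.29, and Nefl and Gad2 of −0.23 and −0.45, with adjusted p-values of 0.539 to 0.799. With the block, 3 of the 10 passed after adjustment, against 0.679% of all genes, Tubb3 higher and Gad1 and Gad2 lower (0.0440, 0.0392 and 0.0178). The summed neuron markers were 2302 to 2578 ppm in AM-Veh and 2442 to 2769.5 in AM-Allo. Of 8 oligodendrocyte lineage markers 7 had higher values in AM-Allo, and of 9 astrocyte markers 8 had lower ones. With the block, 5 and 2 of them had an unadjusted p under 0.05, against 11.0% of all genes, and 0 an adjusted one. The part of these markers in the Wfs1 result was not tested.

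In astrocytes, 2 of 17 genes of eIF2alpha control, 2 of 31 further ATF4 and CHOP targets and 3 of 36 further ER genes had an unadjusted p under 0.05, against 7.01% of all genes, and none an adjusted one. Cebpb, a partner of ATF4 and CHOP, had 1031, 1214 and 1093 in AM-Veh and 1203, 1560.5 and 1520.1 in AM-Allo, a log2 difference of 0.35 (SE 0.087, adjusted p = 0.335, limma). Ddit4 (REDD1), an inhibitor of mTORC1 signalling, had 685, 745 and 690.2 and 825, 823 and 834, a difference of 0.23 (SE 0.056, adjusted p = 0.322). For Cebpb 1 AM-Allo library lay within the vehicle range, while for Ddit4 the groups did not overlap. The ER genes Atf6b, Dnajb11 and Selenok had values higher by 0.17, 0.15 and 0.14, the kinase Eif2ak2 (PKR) by 0.09, and Eif2s1, which encodes eIF2alpha itself, had a difference of −0.11, with adjusted p-values of 0.473 to 0.686. Of 8 microglia markers, 4 had higher and 4 lower values in AM-Allo, and their sums overlapped, at 53.0 to 67.4 ppm in AM-Veh and 53.1 to 61.5 in AM-Allo. Among them Cx3cr1 had an unadjusted p under 0.05, with a lower value (adjusted p = 0.552). Of 9 astrocyte markers, 8 had lower values, 2 of them with an unadjusted p under 0.05 and 0 with an adjusted one, and their sums were 10035 to 10669 and 10044 to 10154 ppm. Their part in these values was not tested.

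The spread between libraries was of another kind in the neuron cultures. There, the ATF4 arm differed between the libraries numbered 2 and those numbered 1, which each held 2 AM-Veh and 2 AM-Allo libraries, and treatment was kept as a term in the fit. Of the 36 genes, 26 were higher in the libraries numbered 2 with an adjusted p under 0.05, against 9.61% of all genes tested, and 1 was lower, against 7.61%. The rise took in 18 of 19 ATF4 targets and 5 of 7 transcription factors and sensors, but 3 of 10 ER chaperones. Median log2 differences were 0.30 for ATF4 targets, 0.22 for transcription factors and sensors and −0.058 for ER chaperones, beside −0.0026 over all genes. The libraries of each number did not overlap for 26 genes that were higher in those numbered 2, against 10.2% of all genes, and for 3 that were lower, against 9.47%. With 4 libraries against 4, the smallest p of an exact permutation test is 0.0286. What the number stands for is not given. If it marks an origin shared by its 4 libraries, each side of this comparison is 1 such origin. The p-values, intervals and SDs by number measure the spread between libraries within a number, not between such origins.

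Of the transcription factors, Atf4 was 3175 ± 210.2 in the 4 libraries numbered 1 and 4161 ± 221 (SD, n = 4) in those numbered 2, a log2 difference of 0.39 (SE 0.041, adjusted p = 9.16e-06, limma). Atf5, a relative of ATF4 under the same translational control, rose more, from 3804 ± 179.9 to 7003 ± 469, a difference of 0.88 (SE 0.044). Atf3 rose by 0.67 (SE 0.082) and Ddit3 by 0.22 (SE 0.062, adjusted p = 0.0225). The ATF6 sensor gene was higher by 0.15 (adjusted p = 0.0127), while Xbp1 and Ern1 had differences of 0.05 and −0.11 with adjusted p-values of 0.509 and 0.257. The calls of Ddit3 and Atf6 depended on single libraries. Leaving out AM-Veh 1-2 or 2-2 gave Ddit3 an adjusted p of 0.0744 or 0.0705, and leaving out AM-Allo 1-2 or 2-2 gave 0.0706 or 0.0898. For Atf6, the fit lacking AM-Allo 1-1 gave 0.0616 and that lacking AM-Allo 2-2 gave 0.0553.

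The largest differences were in an amino acid transporter and a stress effector. Slc7a11 (xCT), which takes up cystine in exchange for glutamate and feeds glutathione synthesis, had normalized counts of 2176, 2479, 8954 and 11358 in AM-Veh libraries 1-1, 1-2, 2-1 and 2-2 and 2220.4, 2224, 10881 and 12057 in the AM-Allo libraries. It was named for its per-library values after they had been seen. The lowest library numbered 2 lay far above the highest numbered 1, in both treatments, and the difference was 2.24 on the log2 scale (95% interval 2.10 to 2.39, adjusted p = 1.66e-11, limma), or 4.73-fold. Trib3, whose values stand above, was 2.95-fold higher, a difference of 1.56 (1.35 to 1.77, adjusted p = 3.35e-08). Chac1, which degrades glutathione, differed by 0.46 (SE 0.094), and Sesn2, a leucine sensor upstream of mTORC1, by 0.27 (SE 0.034).

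The other transporters rose with it: Slc3a2, the heavy chain that pairs with Slc7a11 and with Slc7a5, by 0.53 (SE 0.034), the cationic transporter Slc7a1 by 0.48 (SE 0.039) and Slc7a5 by 0.24 (SE 0.029). In amino acid synthesis, Asns went from 1492 ± 53.8 to 2228 ± 69.8, a difference of 0.58 (SE 0.036, adjusted p = 3.35e-08). The serine enzymes rose in the order Phgdh (0.10), Psph (0.27) and Psat1 (0.30), and Psph and Psat1 differed by less than their standard errors of 0.047 and 0.034. Of the mitochondrial one-carbon enzymes, Shmt2 rose by 0.33 (SE 0.030) and Mthfd2 was at 0.16 (adjusted p = 0.180). Mthfd2 was the single ATF4 target without a call, and without the library AM-Allo 2-2, whose count of 475 was below every other neuron library, its difference was 0.25 with an adjusted p of 0.00981.

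All 6 aminoacyl-tRNA synthetases, the enzymes that charge tRNAs, were higher in the libraries numbered 2, each with no overlap. The rises were largest for Eprs (0.39, SE 0.025) and Nars (0.38, SE 0.023), lower for Aars (0.23), Wars (0.21) and Gars (0.19), and smallest for Sars (0.12, SE 0.025). Eprs and Nars differed from each other by less than their standard errors. Their adjusted p-values ran from 3.25e-08 for Nars to 0.00455 for Sars.

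The ER chaperones divided. Herpud1 rose from 586 ± 17.4 to 771 ± 8.96, a difference of 0.40 (SE 0.044, adjusted p = 1.55e-05), close to that of Atf4. Hspa5 rose by 0.15 (SE 0.025, adjusted p = 0.000745), with 9413 to 10067 in libraries numbered 1 and 10617 to 10985 in those numbered 2, and the co-chaperone Dnajb9 (ERdj4) by 0.18 (adjusted p = 0.0208). The disulfide isomerase Pdia6 fell, at 4169 to 4317 in libraries numbered 1 and 3738 to 4018 in those numbered 2, a difference of −0.13 (SE 0.027, adjusted p = 0.00441). Calr, Hsp90b1 and Sdf2l1 had differences of −0.06, −0.07 and −0.22 with adjusted p-values of 0.0628, 0.0795 and 0.0804. Pdia4, Creld2 and the secreted factor Manf were at −0.05, −0.10 and 0.00093.

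Both groups of ER chaperones held ER stress elements. The windows had one for Hspa5 and Herpud1, which rose, and for Hsp90b1, Calr and Creld2, which did not pass. The window of Dnajb9, which also rose, held none, nor did those of Sdf2l1 and Pdia4, which did not pass. No window was matched for Pdia6, which fell, or for Manf. Leaving out AM-Veh 1-1, 1-2 or 2-1 ended the call of Dnajb9, at adjusted p-values of 0.0546, 0.0620 and 0.0808, as did leaving out AM-Allo 2-1 (0.0617). Without AM-Veh 1-2 or 2-1, the lower values of Hsp90b1 in libraries numbered 2 passed the test (adjusted p = 0.0371 and 0.0396), and without AM-Veh 2-1 so did those of Sdf2l1 (0.0348).

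**Figure D2:**
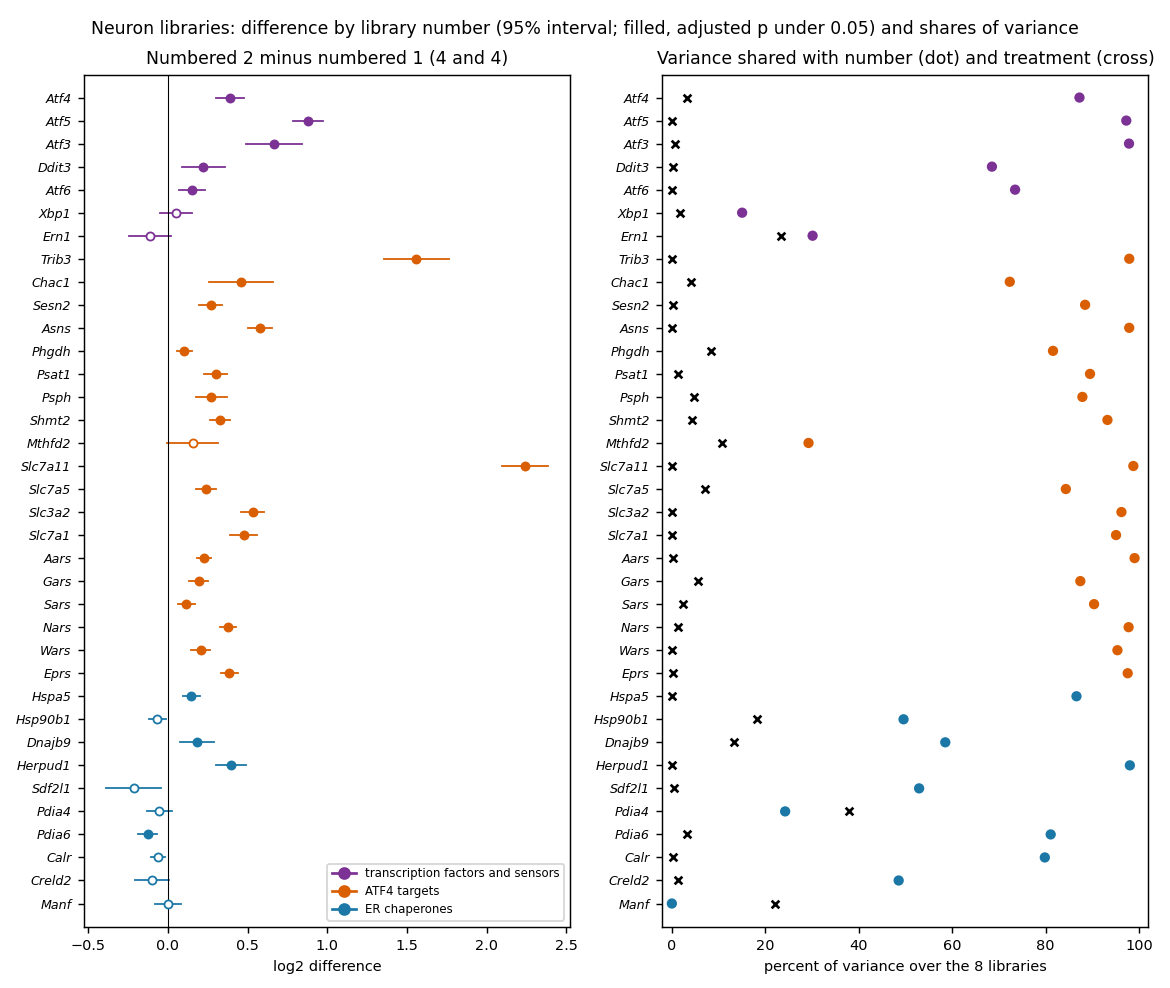
On the left, log2 difference of the 4 neuron libraries numbered 2 minus the 4 numbered 1 with its 95% interval (horizontal axis) for each gene (vertical axis), filled where the adjusted p was under 0.05 and coloured by class; on the right, the percent of each gene's variance over the 8 neuron libraries that went with the first part of the number (dots) and with treatment (crosses). Slc7a11 and Trib3 stand farthest out at 2.24 and 1.56, and the dots of the ATF4 targets sit near the right edge, with a median of 93.2%.

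**Figure D3:**
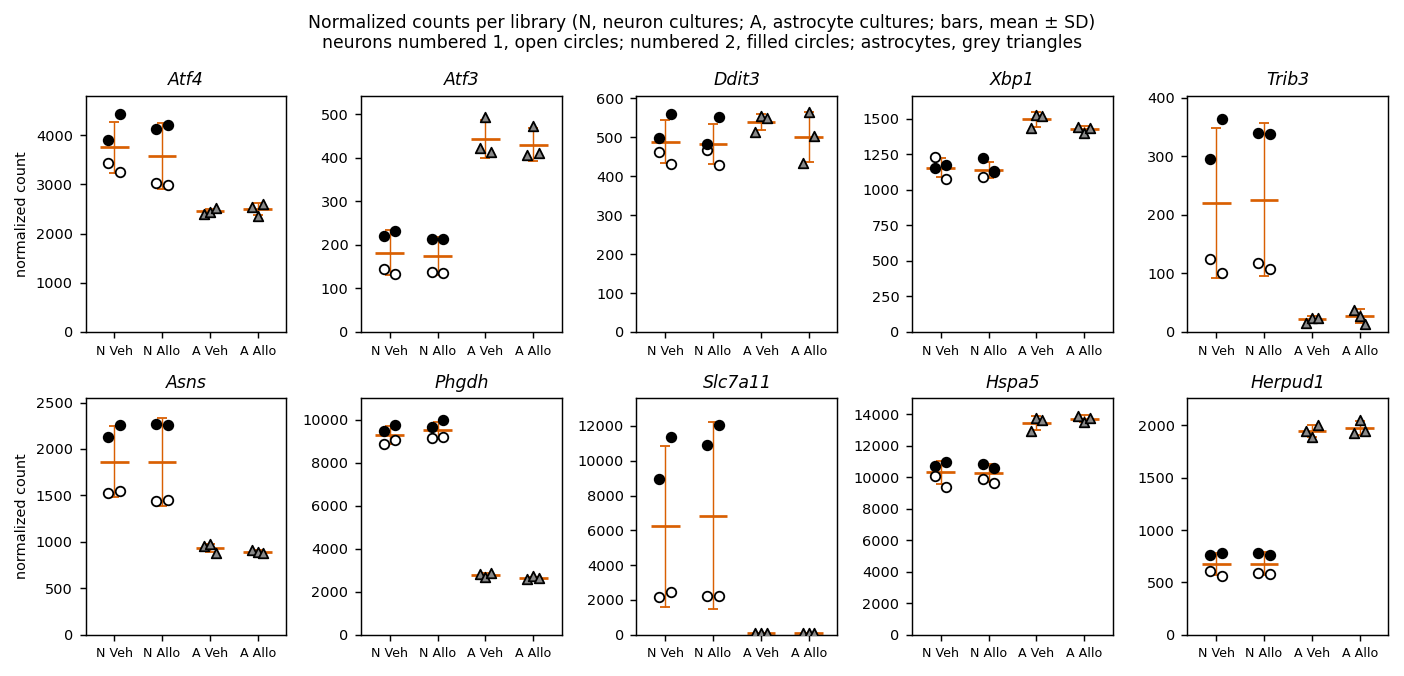
Normalized counts (vertical axes, each from 0) of 10 of the genes in every library, by group (horizontal axes); open circles are neuron libraries numbered 1, filled circles those numbered 2, triangles astrocyte libraries, and bars the group mean with its SD. In neurons the circles of Slc7a11, Trib3, Asns, Atf3 and Herpud1 fall in 2 levels by number inside each treatment, while those of Xbp1 mix.

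The share of each gene's variance over the 8 neuron libraries shows the same split, as a description. The first part of the number went with a median of 93.2% of the variance of ATF4 targets, 73.5% of that of transcription factors and sensors and 55.7% of that of ER chaperones, beside 21.8% over all genes. Treatment went with 1.28%, 0.662% and 2.34%, beside 7.77% over all genes. Both are shares of the whole variance, so a gene with a large share for the number has little left for treatment. The treatment shares therefore cannot show whether these genes respond to Allo less than other genes. At the ends of the list, Aars had 99.0% with the number and 0.295% with treatment, and Manf 0.0106% and 22.2%. Pdia4 and Manf were the 2 genes with a larger share for treatment, and neither passed the Allo test. The coefficient of variation over neuron libraries had a median of 10.3% for the 36 genes and 7.53% for all genes, from 2.51% for Calr to 71.0% for Slc7a11. In astrocytes the medians were 3.80% for the 36 genes and 6.67% for all genes.

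Further genes of the ATF4 pathway moved the same way. Of 30 further ATF4 and CHOP targets tested, 19 were higher and 1 lower in the libraries numbered 2 with an adjusted p under 0.05, against 9.61% and 7.61% of all genes, with a median log2 difference of 0.21. Among them, chosen after their values were seen, were the glutamine transporter gene Slc1a5 (1.53), the secreted factor Stc2 (1.14), the translation repressor Eif4ebp1 (1.09), the folate enzyme Aldh1l2 (0.99), the cationic transporter Slc7a3 (0.97) and the stress cytokine Gdf15 (0.75). Ddit4 was the one that fell, with a difference of −0.22 (SE 0.034). In eIF2alpha control, 2 of 17 were higher and 4 lower, against the same shares of all genes. The phosphatase subunit Ppp1r15a (GADD34), a feedback gene of the response, rose by 0.62 (SE 0.064). Of 36 further ER folding and degradation genes, 2 were higher and 2 lower, against the same shares, with a median of 0.016.

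Other genes moved with the number in the same libraries, and their part in these results was not tested. The counts of markers below stand against 9.61% of all genes higher and 7.61% lower by the same rule. Of 9 astrocyte markers, 4 were higher and 2 lower with an adjusted p under 0.05, and their summed level was 9024 to 9593 ppm in libraries numbered 1 and 10634 to 11599 in those numbered 2. Gfap differed by 0.62 on the log2 scale. Oligodendrocyte lineage markers (1 of 8 higher, 5 lower) summed to 1923 to 2055 and 1719 to 1760 ppm, with Mbp at −0.96, and mesenchymal markers (1 of 6 higher, 3 lower) to 39.7 to 90.1 and 28.2 to 32.5, with Col1a1 at −2.11. Neuron markers (2 of 10 higher, 0 lower) summed to 2409 to 2578 and 2302 to 2769.5. No listed marker of these types was at 0 in every neuron library. In astrocyte cultures, which had another medium and timing, summed astrocyte markers were at 10035 to 10669 ppm. Mean levels there were 4.09 ppm for Slc7a11 and 1.01 for Trib3, below every neuron library. These values do not give the levels in glia of the neuron cultures, which were not measured apart.

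A further table by the authors, of values after a variance-stabilizing transformation (VST), held no such difference in neurons. Over its 18239 genes the largest absolute difference between the means of libraries numbered 2 and 1 was 7.5e-09, and 0 genes exceeded 0.001, whereas 15218 of 15314 genes did so in log2 normalized counts, with differences up to 4.64. The difference by number had therefore been taken out of those VST values, a step not given in the sources used here. In them, 3 of 36 genes had an unadjusted p under 0.05 for Allo, against 14.4% of all genes: Shmt2 (0.057), Slc7a5 (0.065) and Nars (−0.040), with adjusted p-values of 0.234, 0.256 and 0.331. This fit had no term for the number, although its difference had been taken out, so its p-values are too small.

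The cultures also differed in the level of each gene, given in ppm. The tables were normalized separately and the cultures differ in medium and timing, so these levels have no test. ATF4 targets were higher in neuron cultures for 18 of 19 genes with no overlap between the 8 neuron and 6 astrocyte libraries, against 40.2% of the 14386 genes tested in both cultures, at a median ratio of 3.45 beside 1.07 over those genes. ER chaperones were higher in astrocyte cultures for 7 of 10, against 30.5% of all genes, at a median ratio of neurons over astrocytes of 0.753. Slc7a11 had the largest ratio: 103 ± 6.34 in neuron libraries numbered 1 and 485 ± 59.4 in those numbered 2 (SD, n = 4), against 4.09 ± 0.306 in astrocytes (SD, n = 6). Its ratio to astrocytes was thus 25.3 or 118 by number.

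Trib3 was 5.08 and 14.9 times its astrocyte mean, Slc7a1 8.04 times over all neuron libraries, Mthfd2 7.59, Sesn2 7.34 and Phgdh 3.73 times. The exception among the targets was Slc3a2, at 498 to 767 ppm in neuron cultures and 798 to 864 in astrocytes, although its partner Slc7a11 was at 3.63 to 4.46 there. Of the transcription factors, Atf4 and Atf5 were higher in neuron cultures, at ratios of 1.39 and 1.80 by number for Atf4 and 3.06 over all libraries for Atf5. Atf3, Atf6, Xbp1 and Ern1 were higher in astrocytes, with Atf3 at a ratio of 0.441, and Ddit3 overlapped.

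Among the ER chaperones, Pdia4 (0.304), Herpud1 (0.372) and Hsp90b1 (0.585) had the lowest ratios of neurons over astrocytes, and Hspa5 was at 0.815. Sdf2l1, at 3.04, was the one chaperone higher in neuron cultures with no overlap, and Creld2 and Manf overlapped. The side on which a gene lay was the same for both library numbers except for Ddit3, at 0.935 and 1.08.

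**Figure D4:**
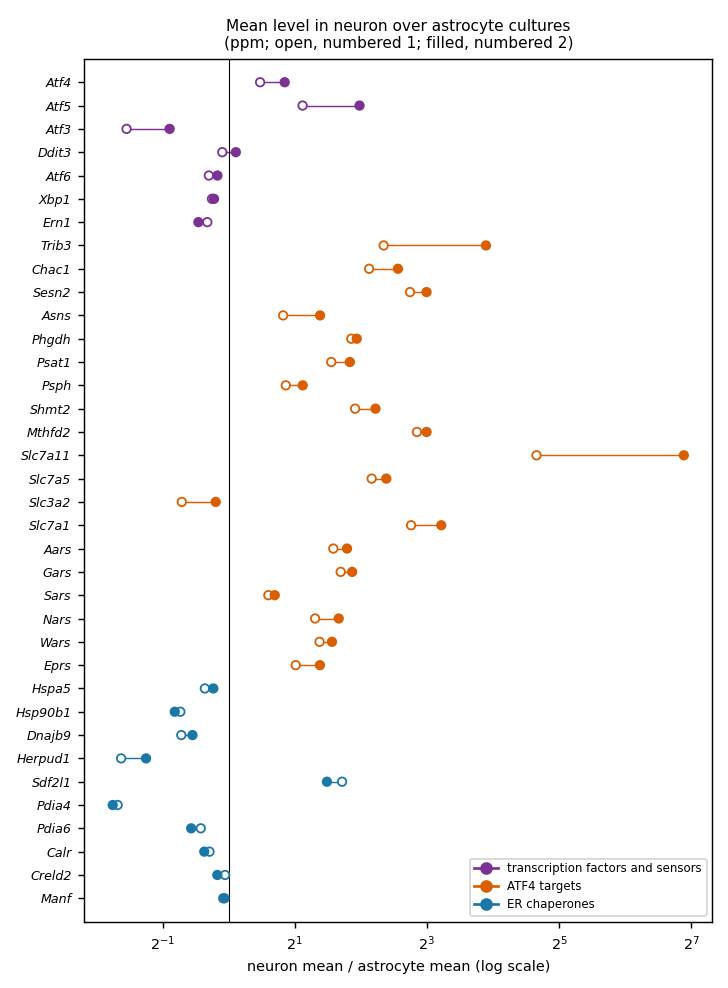
Ratio of the mean level in neuron cultures to that in astrocyte cultures (horizontal axis, log scale, levels in ppm) for each gene (vertical axis), with open points for the 4 neuron libraries numbered 1, filled points for the 4 numbered 2, and colours by class. ATF4 targets lie to the right of 1 apart from Slc3a2, and ER chaperones to its left apart from Sdf2l1.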

How the data were processed

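The authors sequenced stranded poly(A) libraries as paired ends, quantified Ensembl rat transcripts with Salmon 0.14 (per the labels and methods), took gene sums through tximport and applied DESeq2 1.18.1 normalization. The deposited values used are this normalized signal, 1 table per culture, not whole counts. The authors' VST values, which are near the log2 scale, served as an alternative. Dates stand in place of 21 gene symbols for neurons and 24 for astrocytes, none of them a listed gene.

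Groups came from the labels' cell type, treatment and number. Log2(normalized count + 1) was fitted with limma 3.58.1 (lmFit, eBayes with a trend) in R 4.3.3 over all genes with a mean of at least 10, with Benjamini-Hochberg adjustment over all genes tested. Neuron libraries numbered 2 were compared with those numbered 1 with treatment as a term. Differences and intervals are on this log2 scale, which understates the change of low genes. Exact permutation tests were two-sided. The scripts were tested on simulated data.

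After each group's mean was removed, correlations over all genes between the AM-Veh and AM-Allo libraries of the same number were 0.296, 0.229, 0.265 and 0.273 in neurons, so a block by number was also fitted. Alternatives were other pseudocounts (0.5 and 5), filters, scalings and limma settings, VST values, the block, and leaving out each library. The genes, classes, pathway lists and tests were chosen with earlier results of these data known. Values in every library were to be named for 9 listed genes and for any with an unadjusted p under 0.05 for Allo, and from the pathway lists the genes with such a p. Whole reads were not recovered from the normalized values, so no count model was used.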

Additional observations from a re-analysis of the deposited data

How the results depend on the processing

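For Allo, 0 of the 36 genes had an adjusted p under 0.05 under any alternative run. The number of the 36 with an unadjusted p under 0.05 in neurons, 0 in the fit as reported, was 3 with VST values, 2 with the replicate block by the first part of the number, 2 with the replicate block by the whole number, 3 in libraries numbered 1 alone and 5 in those numbered 2 alone (the last pair chosen after seeing the data), and 0 without any single library. Over all 15314 genes such calls numbered 2204 with VST values, 1684 with the block by the first part and 1634 with that by the whole number. They numbered 1216 of 15297 in libraries numbered 1 alone and 1923 of 15305 in those numbered 2 alone. In astrocytes the number of the 36 was 1 with upper-quartile scaling (1095 of all 15380 genes) and 0 to 2 without single libraries. It was 1 without AM-Veh 3 (997 of 15395) or AM-Allo 3 (1022 of 15383) and 2 without AM-Allo 2 (1088 of 15391). The median Allo difference of the ATF4 targets ran from −0.092 to 0.056 without single neuron libraries, changing sign, and from −0.010 to 0.032 without single astrocyte libraries. In neurons it was negative without an AM-Veh library numbered 1 or an AM-Allo library numbered 2, and positive without any other. Each such drop left the numbers unequal between treatments in a fit with no term for the number, so the sign followed the number. For libraries numbered 2 against 1, the genes called higher were 24 to 25 without single libraries, and those called lower 1 to 3 (2 without AM-Veh 1-2, 3 without AM-Veh 2-1), 3 with quantile normalization and 0 with limma without trend, where Pdia6 had an adjusted p of 0.0572. The median of the ATF4 targets was 0.27 to 0.33. Under limma without trend the calls of Ddit3, Atf6, Phgdh and Dnajb9 were lost too (adjusted p = 0.0761, 0.0765, 0.0707 and 0.0884), and under quantile normalization that of Phgdh (0.0546). VST values give no difference by number, as it had been removed.

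Over all genes, Allo calls in neurons at an unadjusted p under 0.05 went from 872 to 1684 with the block by the first part and 2204 with VST values, and adjusted calls from 4 to 104 and 158. The VST counts come from the fit without a term for the number, whose p-values are too small. In astrocytes adjusted calls went from 1 to 17 with the replicate block by number, 4 with a robust fit and 72 without AM-Allo 1, and astrocyte libraries of the same number had correlations of −0.007 to 0.024. The block changed no call of the 36 genes there, while the further target Cebpb passed with it (adjusted p = 0.0382). By number, 2636 genes were called, and 1722 without trend. Scalings moved the median of all genes by less than 0.1. Without the block, an Allo difference of Slc7a11 in neurons was bounded to −1.49 to 1.61 on the log2 scale, and with the replicate block by the first part to −0.08 to 0.20.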
